A study of Mus musculus with 30 samples.

Results

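The chemokine ligand Cxcl12 and its 2 receptors, Cxcr4 and Ackr3, were followed through the subventricular zone (SVZ) and the striatum of the same 15 adult C57Bl/6 mice, with 1 library per mouse and tissue (30 libraries). The 3 genes were taken by name, out of 53278 genes in the SVZ count table and 50508 in the striatum table, and all 3 were present in both. They were chosen by their counts and by their differences between groups in these same libraries, so that their levels and differences are given as a description, with standard errors and without p-values. The ablated group held 5 NestinTK+ GCV mice (A1 to A5), which carried a thymidine kinase transgene under the second intron enhancer of Nestin and received ganciclovir (GCV) from a subcutaneous minipump. GCV kills dividing cells that express the kinase, so that endogenous neural precursor cells are lost where transgene and drug meet. The 10 control mice were 3 NestinTK- GCV mice (G1 to G3), which received the drug without the transgene, 3 NestinTK- PBS mice (P1 to P3), which had neither, and 4 NestinTK+ PBS mice (T1 to T4), which carried the transgene and received saline. The enhancer is active in Nestin-expressing cells in general, and both tissues were taken as dissected pieces that hold many cell types, although the labels call the SVZ samples neural precursor cells. In such samples fewer cells of a type and less RNA per cell cannot be told apart.

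Cxcl12 is a secreted chemokine that binds the glycosaminoglycans of the extracellular matrix and guides cells along its gradient. Cxcr4 is its signalling receptor, which acts through inhibitory G proteins and is used by migrating neural precursors, neuroblasts and blood cells. Ackr3 (also known as Cxcr7) binds the same ligand, recruits arrestins and takes the ligand up, by which it shapes the gradient that Cxcr4 reads. In the adult SVZ, Cxcl12 is known from vessels and the ependymal wall, and the precursors that lie along the vessels carry the receptors.

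By the GENCODE annotation of GRCm38, Cxcl12 (ENSMUSG00000061353) lies on the plus strand at chr6:117168535-117181367, with 8176 exonic bases in 3 blocks. Cxcr4 (ENSMUSG00000045382) lies on the minus strand at chr1:128588199-128592293, with 1808 exonic bases in 2 blocks, and Ackr3 (ENSMUSG00000044337) on the plus strand at chr1:90203980-90216751, with 3348 exonic bases in 3 blocks. None of the 3 overlaps another annotated gene, so that no overlapping or antisense gene shares their counts.

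The 250 bases before each start (RefSeq, GRCm38.p6) are shown because the readouts below are transcript levels and these are the sequences next to the starts from which the transcripts begin. They cover chr6:117168285-117168534 for Cxcl12, chr1:128592300-128592549 on the minus strand for Cxcr4 and chr1:90203730-90203979 for Ackr3, each read 5′ to 3′ toward the gene. Capitals mark matches on either strand to 4 motifs, the GC box (GGGCGG), the TATA box (TATAAA), the CCAAT box (CCAAT) and the core of hypoxia-inducible factor sites (ACGTG).
Cxcl12: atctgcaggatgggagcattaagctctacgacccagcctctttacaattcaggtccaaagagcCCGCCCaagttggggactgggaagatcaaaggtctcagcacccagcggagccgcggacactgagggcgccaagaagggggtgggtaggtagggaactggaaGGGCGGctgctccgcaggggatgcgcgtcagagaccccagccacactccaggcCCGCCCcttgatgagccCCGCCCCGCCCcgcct
Cxcr4: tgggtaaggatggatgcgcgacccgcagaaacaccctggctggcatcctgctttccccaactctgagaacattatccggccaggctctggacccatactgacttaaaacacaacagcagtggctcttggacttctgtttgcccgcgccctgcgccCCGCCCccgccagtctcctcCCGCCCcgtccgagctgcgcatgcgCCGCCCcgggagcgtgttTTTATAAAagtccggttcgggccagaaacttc
Ackr3: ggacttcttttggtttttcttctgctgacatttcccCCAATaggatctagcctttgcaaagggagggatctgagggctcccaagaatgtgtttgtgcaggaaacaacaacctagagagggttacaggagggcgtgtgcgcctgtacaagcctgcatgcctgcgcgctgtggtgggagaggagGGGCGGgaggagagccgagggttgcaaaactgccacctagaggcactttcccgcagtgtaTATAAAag
The Cxcl12 window held 5 GC boxes, overlapping in the last stretch of capitals, and no TATA or CCAAT box. The Cxcr4 window held 3 GC boxes and a TATA box that is matched on both strands by overlapping letters (2 matches), and the Ackr3 window held 1 each of the GC, TATA and CCAAT boxes. None of the 3 held the core of hypoxia-inducible factor sites. Of the 32851 annotated windows of the same length, 32.7% held a GC box, 12.4% a TATA box, 33.8% a CCAAT box and 16.6% the core. The windows had a GC content of 64.4% for Cxcl12, 61.2% for Cxcr4 and 54% for Ackr3, against a median of 52.4% over all windows. These matches are a description of the letters and not of any binding.

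Both tissues were read as raw counts, but with different kits, so that their values do not share a scale. SVZ libraries (SMART-Seq v4, which amplifies whole transcripts) held 8.36 to 21.1 M counts, with 8.36 to 9.6 M in the ablated mice, and striatum libraries (QuantSeq, which counts 3′ ends) held 2.63 to 4.69 M. By their medians, 3 transcripts of dividing cells and neuroblasts were lower in the ablated than in the control SVZ. Top2a, a topoisomerase of dividing cells, ranged from 0 to 3.59 CPM (counts scaled to a library of 1 M) in ablated and from 3.91 to 68.8 CPM in control mice, and Igfbpl1, a marker of neuroblasts, from 0 to 0.244 against 0.66 to 34.9 CPM. Dcx, the microtubule protein of neuroblasts, ranged from 15.5 to 26 against 23.3 to 108 CPM. In 3 SVZ control libraries (P1, P2 and T1) the choroid plexus transcript Ttr took 4.49% to 9.88% of the counts. The SVZ libraries also held striatal RNA: the 10 markers of medium spiny neurons summed to 3870 to 12700 CPM in ablated and 4860 to 10300 CPM in control mice. Markers of cortical excitatory neurons differed between SVZ libraries. The mean of these 8 markers was 5.91 log2 CPM in A2, 5.9 in G3 and 4.18 in G1. It was at most 1.97 (T2) in the other libraries. In both tissues the library numbers up to 10 are those of mice that received GCV and the higher numbers those of mice that received PBS, so that numbering and drug cannot be told apart. Mouse numbers fall into a 34 and a 40 series, whose meaning the labels do not give, and all 5 ablated mice belong to the 40 series.

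In the SVZ the mean level of the ligand was higher in ablated than in control mice, and those of both receptors were lower. For all 3 genes the groups overlapped, and the larger group SD exceeded the difference of the means in CPM. Levels are CPM after TMM normalization of library sizes. Per kilobase of exon, the control level of Cxcl12 was 3.59 ± 1.31 CPM (SD, n = 10), that of Ackr3 1.43 ± 1.02 CPM and that of Cxcr4 1.32 ± 1.11 CPM, and the ranges of the 3 genes overlapped. The length used was that of all annotated exons of a gene together, which can exceed that of the transcripts present, and these values depend on it. Among the genes tested, the average level of Cxcl12 stood at the 70th percentile, that of Ackr3 at the 30.4th and that of Cxcr4 at the 21.8th.

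Cxcl12 in the ablated SVZ was 29.6 CPM in A1, 52.6 CPM in A2, 130 CPM in A3, 29.8 CPM in A4 and 84.5 CPM in A5. It was 24.7, 35.1 and 14.8 CPM in G1 to G3, 35.9, 35.2 and 13.7 CPM in P1 to P3, and 36.3, 42.7, 37.6 and 17.2 CPM in T1 to T4. Mice A2, A3 and A5 lay above every control, and A1 and A4 lay within the range of the controls, so that the groups overlapped. The means were 65.2 ± 42.4 CPM (SD, n = 5) in ablated and 29.3 ± 10.7 CPM (n = 10) in control mice. The log2 fold change was 1.15 (SE 0.35), which passed the thresholds taken over from the study for a gene called higher in edgeR's quasi-likelihood test (an unadjusted p-value no larger than 0.01 together with a change of 2-fold or more). Of all 16375 genes tested, 0.373% were called higher and 1.22% lower, and 0.256% had groups that did not overlap; 1 of the 3 genes was called, none of the 3 had separate groups, and nothing is read from these shares because the genes were chosen with them known. After adjustment over all genes 1 gene of the SVZ was under 0.05, and it was not Cxcl12.

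The call rested on the mice with the highest levels. Without A3 the log2 fold change was 0.74 (SE 0.35) and without A5 it was 1.05 (SE 0.38), and in both cases the gene was no longer called; it was called in the other 13 of the 15 fits that left out 1 mouse. It was called in 6 of 12 further settings, and the other 6 were limma-voom (0.95, SE 0.36), each control group taken alone (0.96 to 1.39), the mice of the 40 series alone (1.15, SE 0.45) and the series as a covariate (1.16, SE 0.44). The direction was the same in all 27 of these fits. The call and these fits use the same mice whose values led to the choice of the gene. They are therefore a description and not support.

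**Figure D1:**
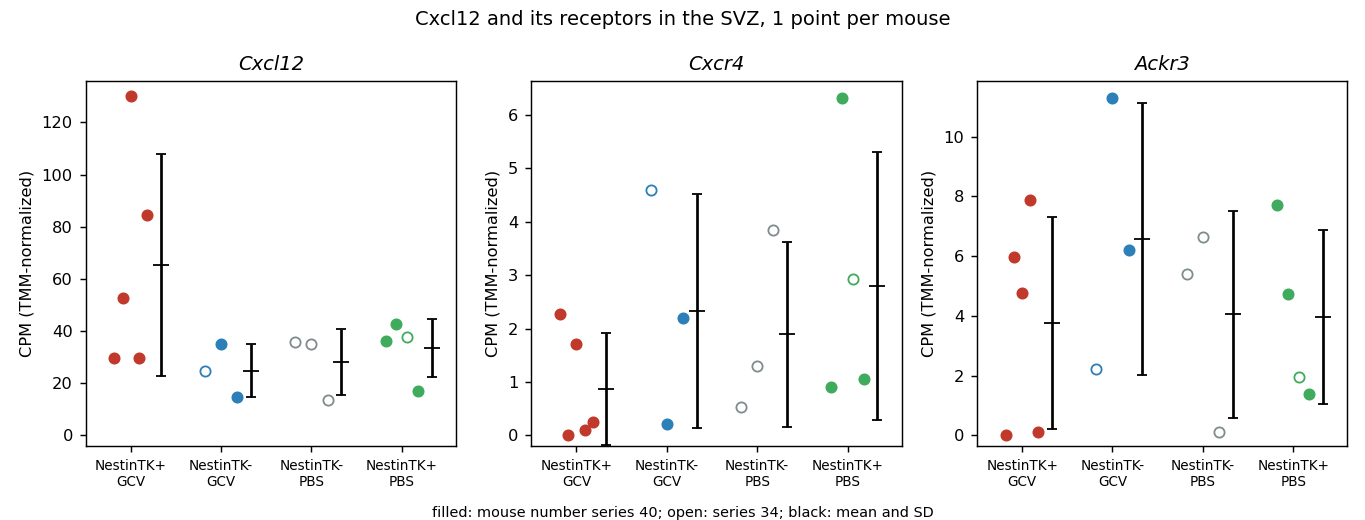
Levels of Cxcl12, Cxcr4 and Ackr3 in the SVZ, in CPM on linear axes, with 1 point per mouse, filled for mice of the 40 number series and open for the 34 series; black lines give the mean and SD of each group. For Cxcl12, A2, A3 and A5 lie above the highest control at 42.7 CPM, while the points of both receptors overlap between all groups.

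By group, the mean Cxcl12 level on the log2 CPM scale was 5.79 ± 0.93 (SD) in NestinTK+ GCV, 4.99 ± 0.59 in NestinTK+ PBS, 4.71 ± 0.79 in NestinTK- PBS and 4.56 ± 0.62 in NestinTK- GCV mice. Each neighbouring pair in this order differed by less than the larger SD of the pair. In a fit with 4 groups, ablated mice exceeded NestinTK- GCV mice by 1.39 (SE 0.53) and NestinTK+ PBS mice by 0.96 (SE 0.47) on the log2 scale. GCV without the transgene gave a difference of -0.19 (SE 0.56) and the transgene without GCV one of 0.24 (SE 0.53), both against NestinTK- PBS mice. The interaction of genotype and treatment was 1.15 (SE 0.73). These contrasts share groups and are not independent of each other.

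Because Cxcl12 is known from vessels and the ependymal wall, markers of vessel and ependymal cells were set beside it. The 12 endothelial markers summed to 342 to 487 CPM in ablated and 264 to 494 CPM in control mice. None was at 0 in all ablated mice, none was called, and their median log2 fold change was 0.43 (3 of 12 below 0), against -0.03 over all genes tested. Of all genes tested, 51.9% lay below 0, 0.373% were called higher and 1.22% lower. Cldn5, the tight junction protein that defines brain endothelium, ranged from 22.5 to 67.7 CPM in ablated and 6.51 to 88.5 CPM in control mice. The 10 markers of pericytes and smooth muscle summed to 146 to 278 against 135 to 246 CPM, with a median of 0.44, 3 of 10 below 0 and 1 called lower (Acta2, the smooth muscle actin, at -1.96, SE 0.62), and Pdgfrb, which defines pericytes, ranged from 3.95 to 30.5 against 1.67 to 20.3 CPM. As a percentage of the endothelial sum, Cxcl12 stood at 27.5% in A3 and 22% in A5, at 7.28% in A1, 10.8% in A2 and 8.71% in A4, and at 3.93% to 12.4% in the controls. Thus A3 and A5 lay above the controls on this scale as well, while A2 did not. The 10 ependymal markers summed to 28.8 to 270 CPM in ablated and 91.9 to 412 CPM in control mice, with 10 of 10 below 0, 2 called lower and a median log2 fold change of -1.24. Their sum was 28.8 CPM in A5, 51.6 in A2 and 92.1 in A3, the mice with the highest Cxcl12, and 167 in A4 and 270 CPM in A1. This order was not seen within the 10 control mice. There Cxcl12 and the mean of the ependymal markers gave Pearson's r = 0.111 and Spearman's rho = 0.333. Foxj1, which defines ependymal cells, ranged from 5.01 to 60.7 CPM in ablated and 13.3 to 66.2 CPM in control mice. The part of vessel and ependymal cells in the difference was not tested.

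Cxcr4 was near the limit of detection in most ablated SVZ libraries. It had 19 counts in A1, 0 in A2, 14 in A3, 1 in A4 and 2 in A5, against 64, 2 and 29 in G1 to G3, 7, 27 and 35 in P1 to P3, and 12, 85, 51 and 15 in T1 to T4. The 0 of A2 among 8.45 M counts allows a level of up to 0.355 CPM. A2, A4 and A5 lay at or below this depth's limit of 3 counts, and of the controls only G2 did, whereas A1 and A3 stood among the controls. The levels were 0.868 ± 1.05 CPM (SD, n = 5) in ablated and 2.39 ± 2 CPM (n = 10) in control mice, with a log2 fold change of -1.45 (SE 1.16), which was not called. Summed over the mice of a group, Cxcr4 had 0.824 counts per M counted (95% exact Poisson interval 0.577 to 1.14) in NestinTK+ GCV, 2.72 (2.2 to 3.33) in NestinTK- GCV, 1.6 (1.24 to 2.02) in NestinTK- PBS and 2.94 (2.51 to 3.43) in NestinTK+ PBS mice. These intervals cover counting error only, and the spread between mice was wider.

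The log2 fold change of Cxcr4 remained below 0 in all 27 alternative fits, from -2.17 without A1 to -1.1 against NestinTK- PBS mice alone. In the 4-group fit it was -1.42 (SE 1.5) against NestinTK- GCV and -1.68 (SE 1.41) against NestinTK+ PBS mice, and the interaction was -1.98 (SE 2.22). Markers of cell types that can carry the receptor were set beside it. Of all genes tested, 1.22% were called lower and 51.9% lay below 0. The 10 dividing-cell markers summed to 14.1 to 43 CPM in ablated and 53.3 to 181 CPM in control mice (3 called lower, 10 of 10 below 0), with Top2a at 0 in at least 1 ablated mouse. The 12 neuroblast markers summed to 356 to 608 against 486 to 1050 CPM (5 called lower, 11 below 0). The 9 markers of neural stem or transit-amplifying cells summed to 521 to 805 CPM (median 602) in ablated against 331 to 877 CPM (median 515) in control mice, with 1 called lower, 7 below 0 and a median log2 fold change of -0.85. The 12 markers of neutrophils and blood (8 tested) summed to 4.91 to 47.7 against 2.2 to 44 CPM, with none called, 4 below 0, a median log2 fold change of -0.12 and 2 of the 12 markers at 0 in all ablated mice. The part of these cell types in the difference was not tested.

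Within the 10 control mice, where ablation plays no part, Cxcr4 followed the dividing-cell markers with Pearson's r = 0.805 (permutation p = 0.00407) and Spearman's rho = 0.721 (p = 0.0236), n = 10 mice. Without the 2 mice farthest from the median of the markers r was 0.49. Other lists gave similar values for Cxcr4. With the neural stem or transit-amplifying, oligodendrocyte and neuroblast markers r was 0.779, 0.726 and 0.699 (rho = 0.758, 0.77 and 0.758). Without the 2 farthest mice r was 0.566, 0.541 and 0.815. In the striatum Cxcr4 gave r = 0.811 with the ependymal (rho = 0.709) and 0.599 with the dividing-cell markers (rho = 0.2). For Ackr3 in the SVZ, rho was -0.794 with the neuroblast, -0.782 with the neural stem or transit-amplifying and -0.77 with the astrocyte markers (r = -0.588, -0.395 and -0.54). These were among 93 relations computed between the 3 genes and 15 marker lists in both tissues and among the genes in the SVZ. For the dividing-cell markers the adjusted p-value was 0.189 for r and 0.22 for rho. The lowest of all was 0.186, so that no relation passed the adjustment. For Cxcl12, r was 0.604 with the endothelial (rho = 0.527, permutation p = 0.0616 and 0.123, adjusted 0.349 and 0.497) and 0.757 with the pericyte and smooth muscle markers (rho = 0.552, permutation p = 0.0129 and 0.104, adjusted 0.299 and 0.463), n = 10, and 0.371 and 0.776 without the 2 farthest mice. Lists other than vessel cells gave values near the endothelial one. With the meningeal fibroblast, microglia and medium spiny neuron markers r was 0.588, 0.588 and 0.587 (rho = 0.648, 0.273 and 0.321). The number series split the controls into 5 and 5 mice, too few for a value within each.

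**Figure D2:**
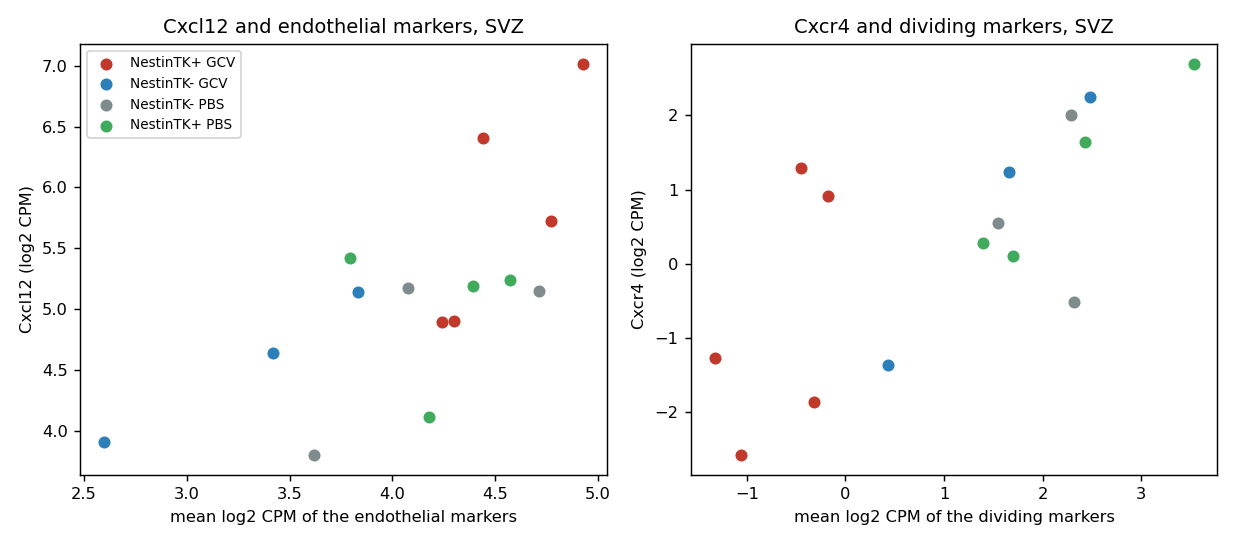
Cxcl12 against the mean of the endothelial markers (left) and Cxcr4 against the mean of the dividing-cell markers (right) in the SVZ, both axes in log2 CPM, 1 point per mouse, coloured by group. A3 is the highest point on the left, and on the right the 5 ablated mice lie to the left of all 10 controls while their Cxcr4 levels spread from below the lowest control to above the median of the controls.

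Ackr3 did not separate the groups of the SVZ. It had 0, 43, 39, 74 and 1 counts in A1 to A5, 31, 103 and 82 in G1 to G3, 71, 138 and 1 in P1 to P3, and 102, 64, 34 and 20 in T1 to T4. Within the ablated group the libraries were split, with A1 and A5 at or near 0 CPM, A3 at 4.77 and A2 at 5.98 CPM near the median of the controls (5.08 CPM), and A4 at 7.89 CPM above all controls except G2 at 11.3 CPM; the 0 of A1 among 8.88 M counts allows up to 0.338 CPM. The levels were 3.75 ± 3.55 CPM (SD, n = 5) against 4.77 ± 3.42 CPM (n = 10), with a log2 fold change of -0.35 (SE 1.04), which was not called. It ranged from -1.45 with limma-voom to -0.01 without A1, always below 0. In the 4-group fit it was -0.81 (SE 1.41) against NestinTK- GCV mice and -0.08 (SE 1.32) against NestinTK+ PBS mice.

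The receptors were thus low in partly different mice. In A1, Ackr3 was at 0 and Cxcr4 had its highest ablated count; in A2 and A4, Cxcr4 had 0 and 1 counts and Ackr3 43 and 74; in A5 both were at 1 or 2. Within the 10 control mice, r between the receptors was -0.519 (rho = -0.588, permutation p = 0.122 and 0.0803, adjusted 0.442 and 0.376, n = 10), and r between Cxcl12 and Ackr3 was 0.619 (rho = 0.285, permutation p = 0.0437 and 0.427, adjusted 0.349 and 0.904, n = 10) and fell to 0.0313 without the 2 farthest mice. Between Cxcl12 and Cxcr4 it was -0.207 (rho = 0.0182, permutation p = 0.565 and 0.974, adjusted 0.797 and 0.984, n = 10).

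In the striatum the ligand differed little between ablated and control mice as a whole. Cxcl12 was 98.2 CPM in A1, 51.5 in A2, 72.4 in A3, 74 in A4 and 60.1 in A5, against 86.1, 31.7 and 50 CPM in G1 to G3, 80.2, 69.9 and 75.9 CPM in P1 to P3, and 57.1, 42.4, 74.6 and 55.4 CPM in T1 to T4. The highest mouse was ablated and the lowest a control, and the groups overlapped. The means were 71.2 ± 17.7 CPM (SD, n = 5) and 62.4 ± 17.8 CPM (n = 10), with a log2 fold change of 0.19 (SE 0.19). The ablated mouse with the highest level in the SVZ, A3, held the middle place in the striatum. None of the 3 genes was called in the striatum and none had separate groups, where 0.454% of the 15419 genes tested were called higher, 0.240% lower, and 0.532% did not overlap.

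The order of the striatal group means was 6.24 ± 0.1 log2 CPM (SD) in NestinTK- PBS, 6.13 ± 0.35 in NestinTK+ GCV, 5.83 ± 0.33 in NestinTK+ PBS and 5.7 ± 0.71 in NestinTK- GCV mice, and each neighbouring pair differed by less than the larger SD. The direction depended on the control group, from -0.08 (SE 0.17) against NestinTK- PBS mice alone to 0.33 (SE 0.23) against NestinTK- GCV mice alone. In the 4-group fit the interaction of genotype and treatment was 0.74 (SE 0.34).

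The control mice differed by number series, a grouping that was made after seeing the data. In the striatum Cxcl12 was 69.9 to 86.1 CPM in the 5 controls of the 34 series (G1, P1, P2, P3, T3; mean 77.4 ± 6.11, SD) and 31.7 to 57.1 CPM in the 5 of the 40 series (G2, G3, T1, T2, T4; mean 47.3 ± 10.4), so that the series did not overlap. The log2 fold change of the 40 against the 34 series was -0.71 (SE 0.16). Ackr3 went the other way, with 0 to 2.83 CPM in the 34 series and 3.25 to 5.06 CPM in the 40 series, again without overlap, and a log2 fold change of 1.3 (SE 0.54). Cxcr4 overlapped, at 0 to 3.09 and 0.472 to 2.67 CPM. Over all genes of the striatum 1.29% had series that did not overlap, against 2 of these 3 genes, which were noticed for it.

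In the SVZ of the same control mice all 3 genes overlapped between the series, where 0.446% of genes did not. Cxcl12 averaged 29.4 ± 10.1 CPM (SD, n = 5) in the 34 and 29.2 ± 12.4 CPM in the 40 series, with a log2 fold change of -0.01 (SE 0.39). For Ackr3 it was 0.94 (SE 0.96) and for Cxcr4 -0.3 (SE 1.1).

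The 5 ablated mice all belong to the 40 series. Set against the 5 controls of that series, striatal Cxcl12 was 71.2 CPM against 47.3 CPM, a log2 fold change of 0.58 (SE 0.19), and with the series as a covariate in the fit of all mice it was 0.59 (SE 0.17). These values are below the 2-fold threshold, and the levels overlapped between A2 at 51.5 CPM and controls up to 57.1 CPM. Striatal Ackr3 changed its sign, from 0.2 (SE 0.47) against all controls to -0.33 (SE 0.35) against those of the 40 series. In the SVZ the same restriction left Cxcl12 at 1.15 (SE 0.45). What the number series stands for is not given, and the NestinTK- PBS mice all belong to the 34 series, so that series and group cannot be told apart there.

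**Figure D3:**
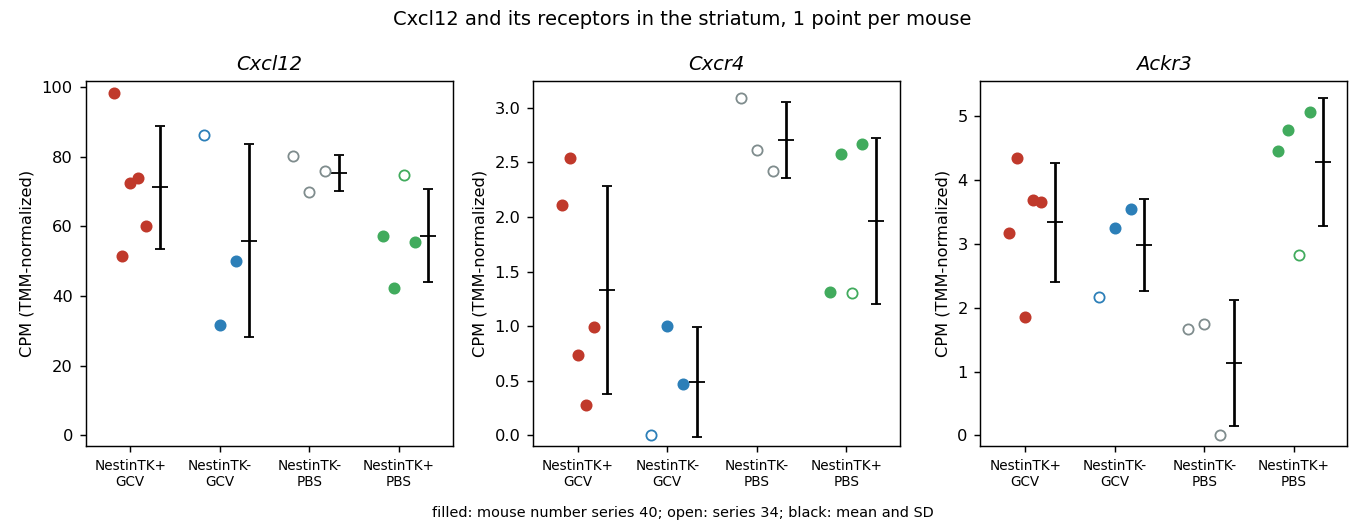
Levels of Cxcl12, Cxcr4 and Ackr3 in the striatum, in CPM on linear axes, with 1 point per mouse, filled for mice of the 40 number series and open for the 34 series; black lines give the mean and SD of each group. Among controls the open points of Cxcl12 (69.9 to 86.1 CPM) lie above the filled ones (31.7 to 57.1 CPM), and those of Ackr3 lie below them.

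Striatal Cxcr4 was measured by few counts. There were 6, 7, 2, 1 and 3 in A1 to A5, 0, 4 and 2 in G1 to G3, 13, 12 and 10 in P1 to P3, and 5, 7, 6 and 10 in T1 to T4. The 3 NestinTK- GCV mice were the lowest group and the 3 NestinTK- PBS mice the highest. These 2 groups did not overlap, which was also so for 20.0% of all genes tested. In the NestinTK+ mice the GCV and PBS groups overlapped. The log2 fold change of ablated against control mice was -0.4 (SE 0.64). It was 1.34 (SE 0.87) against NestinTK- GCV mice in the 4-group fit. GCV against PBS gave -2.37 (SE 0.89) without the transgene, and -0.55 (SE 0.69) with it.

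Summed by treatment, Cxcr4 had 25 counts in the 26.8 M of the 8 GCV-treated mice, or 0.933 per M (95% exact Poisson interval 0.604 to 1.38), and 63 in the 27.9 M of the 7 PBS-treated mice, or 2.26 per M (1.73 to 2.89). In the SVZ the sums were 1.67 (1.39 to 1.98) and 2.35 (2.06 to 2.67) per M. There the direction differed by genotype. GCV-treated mice were at 2.72 and PBS-treated mice at 1.6 per M without the transgene, against 0.824 and 2.94 per M with it. These sums pool mice of both genotypes, and their intervals cover counting error and not the spread between mice. Library number follows treatment and cannot be told apart from it.

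Striatal Ackr3 had 9, 12, 5, 13 and 11 counts in A1 to A5, 8, 13 and 15 in G1 to G3, 7, 8 and 0 in P1 to P3, and 17, 13, 13 and 19 in T1 to T4. The NestinTK+ PBS group was the highest and the NestinTK- PBS group the lowest. The latter did not overlap with either other control group; between NestinTK- GCV and NestinTK- PBS mice 20.0% of all genes tested did not overlap, and between NestinTK+ PBS and NestinTK- PBS mice 5.71%. Of the 3 genes, Cxcr4 and Ackr3 were separate in the first of these pairs and Ackr3 in the second. The log2 fold change against NestinTK- PBS mice was 1.36 (SE 0.66) for NestinTK- GCV and 1.86 (SE 0.62) for NestinTK+ PBS mice. Mouse P3 had 0 counts in the 4.12 M of its striatum library, which allows up to 0.728 CPM, and 1 count in its SVZ library.

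Against all controls the striatal log2 fold change of Ackr3 in ablated mice was 0.2 (SE 0.47), with 3.34 ± 0.934 CPM (SD, n = 5) in ablated and 2.95 ± 1.6 CPM (n = 10) in control mice. It was 1.52 (SE 0.74) against NestinTK- PBS mice alone and -0.35 (SE 0.41) against NestinTK+ PBS mice alone. Without P3 it was 0.04 (SE 0.36).

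**Figure D4:**
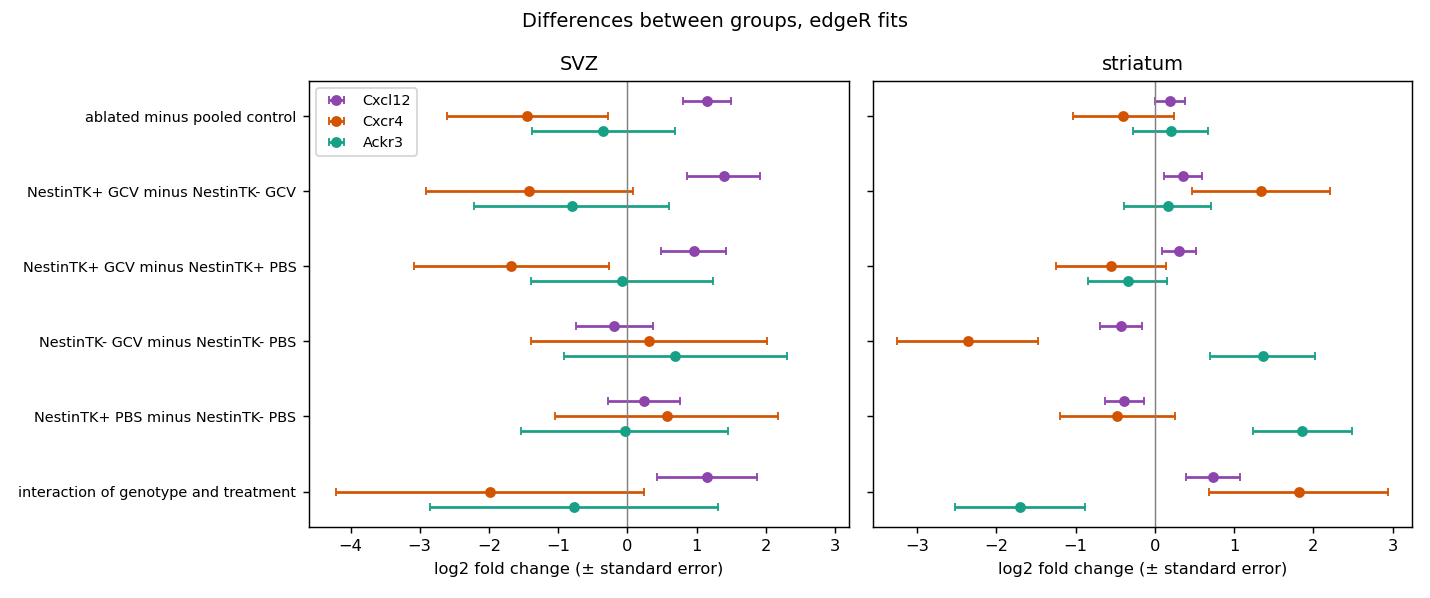
Log2 fold changes of the 3 genes between groups in the SVZ (left) and the striatum (right), from edgeR fits, with points for the estimates and bars for 1 standard error. In the SVZ, Cxcl12 is above 0 in every contrast with ablated mice, while the bars of the receptors are about 1 or more on the log2 scale; in the striatum the contrasts among control groups are as large as those with ablated mice.

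Other genes of the axis were described from a list of 89 genes in 8 roles. In the SVZ 84 were tested. Of these, 1 was called lower and none higher, against 1.22% lower and 0.373% higher of all genes. At an unadjusted p-value under 0.05 there were 2 higher and 3 lower, against 3.73% higher and 6.09% lower of all genes. The median log2 fold change of the list was -0.0002, against -0.03 over all genes, and 42 of the 84 lay below 0, against 51.9% of all genes. The called gene was Rest, a repressor of neuronal genes, at 0.619 to 6.19 CPM (median 3.34) in ablated and 3.66 to 65.1 CPM (median 13.7) in control mice, with a log2 fold change of -2.43 (SE 0.73, adjusted p = 0.347 by edgeR). The groups overlapped, the call did not pass the adjustment over all genes, and it was lost in 5 of 12 other settings.

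By role, the SVZ genes with the smallest p-values were as follows, and none of them was called. Among other binders of the receptors it was Hmgb1, an alarmin that forms a complex with Cxcl12, at -0.45 (SE 0.26). Among matrix and processing genes it was Sdc1, a heparan sulphate proteoglycan, at -3.63 (SE 1.87) from a median of 0 CPM in ablated and 0.387 CPM in control mice. Among partner receptors it was Cd74, the receptor of the cytokine Mif, at -1.39 (SE 1.52). In the signalling chain these were Gnao1, a G protein subunit of neurons, at 0.36 (SE 0.15), Grk2, a kinase that desensitizes receptors, at 0.48 (SE 0.23), and Pik3ca, a catalytic subunit of PI3 kinase, at -0.67 (SE 0.25). Among genes of migration it was Itgb1, the integrin beta 1 subunit, at -1.05 (SE 0.38, adjusted p = 0.385 by edgeR), with 6.8 to 44.5 CPM in ablated and 29.3 to 78.1 CPM in control mice.

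In the striatum 83 of the 89 genes were tested and none was called by edgeR; limma-voom and DESeq2 called none either. Of all genes, 0.454% were called higher and 0.240% lower. At an unadjusted p-value under 0.05, 3 were higher and 5 lower, against 5.19% and 5.31% of all genes. The median of the list was -0.07, against 0.004 over all genes, and 50 of the 83 lay below 0, against 49.5% of all genes. Rhoa, a small GTPase that controls contraction of migrating cells, was 206 to 352 CPM (median 232) in ablated and 300.4 to 446 CPM (median 328) in control mice, with a log2 fold change of -0.49 (SE 0.13, adjusted p = 0.127 by edgeR). Map2k1, a kinase of the MAP kinase cascade, was 143 to 287 CPM against 89.2 to 245 CPM, at 0.58 (SE 0.2, adjusted p = 0.28 by edgeR). The other genes with the smallest p-value of their role were Hmgb1 at -0.23 (SE 0.17), Sdc2, a heparan sulphate proteoglycan, at 0.39 (SE 0.18), Cd44, a hyaluronan receptor, at -0.72 (SE 0.49), Gnai2, an inhibitory G protein subunit, at -0.19 (SE 0.11), Itch, a ubiquitin ligase that acts on Cxcr4, at -0.3 (SE 0.14), and Nrf1, a transcription factor, at 0.26 (SE 0.2).

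The genes whose levels were most like those of the 3 genes over the 15 libraries of a tissue differed between the tissues. In the SVZ, among 11441 genes with a mean of at least 5 CPM, Cxcl12 was most like Tln2, Usp3, Peak1, Muc3a and Senp7 (Pearson's r of log2 CPM from 0.866 to 0.83). Cxcr4 was most like Lama2, Mag, Pacs2, Fancf and Csrp1 (0.872 to 0.81), and Ackr3 was most like C77080, D6Wsu163e, Psmd10, Krcc1 and Zmym1 (0.894 to 0.854). In the striatum, among 10569 genes, Cxcl12 was most like Shb, AI593442, Zhx1, Prr14 and Naca (0.855 to 0.812), Cxcr4 most like Serpinh1, Trps1, Igf1r, Pbdc1 and Ttc21b (0.877 to 0.78), and Ackr3 most like 2310039H08Rik, Zfp862-ps, Inpp5d, Trim27 and Gm20712 (0.853 to 0.818). No gene was among the 5 of the same member in both tissues. The libraries share depth, batch and group, the genes were picked as the highest of all correlations computed, and the values are a description.

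**Figure D5:**
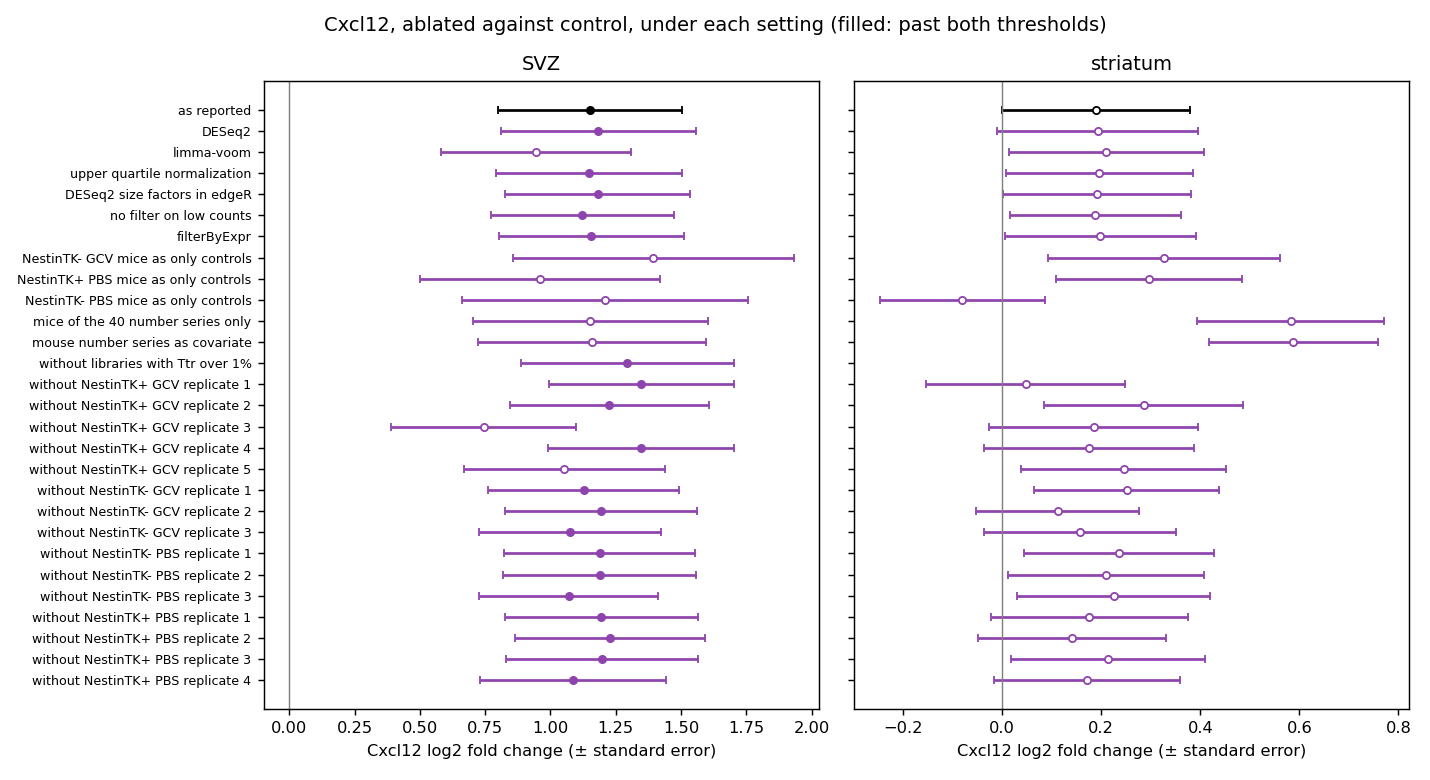
Log2 fold change of Cxcl12, ablated against control, under each analysis setting in the SVZ (left) and the striatum (right); bars are 1 standard error, filled points pass both thresholds and black points are the values reported. All SVZ estimates lie above 0, the lowest (0.74) without NestinTK+ GCV replicate 3, which is A3; the striatal estimates run from -0.08 to 0.59, and the 2 highest take the mouse number series into account.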

How the data were processed

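RNA from the SVZ and the striatum of 15 mice was sequenced, and the authors deposited 1 table of raw gene counts per tissue, without normalization. Per the labels and the study's methods, single-end reads were trimmed with Trimmomatic (0.36 in the submitters' processing notes), aligned with STAR 2.5.3a to mm10 with Gencode annotation and counted with featureCounts; the strand setting was not given in the sources used here. The kits were SMART-Seq v4 for the SVZ and QuantSeq 3′ FWD for the striatum, so the tissues were analysed apart. Groups were taken from the labels. The counts of all 30 libraries were used, at 8.36 to 21.1 M per SVZ and 2.63 to 4.69 M per striatum library.

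Genes above 1 CPM in 3 or more libraries were kept (16375 and 15419), normalized by TMM and fitted with edgeR 4.0.16 (quasi-likelihood test, R 4.3.3), ablated against all control mice, and in a second fit with 4 groups. A gene was called where the unadjusted p-value was no larger than 0.01 and the change 2-fold or more; Benjamini-Hochberg adjustment ran over all tested genes of a tissue. Log2 CPM used a prior count of 2. The biological coefficient of variation was 0.939 in the SVZ and 0.251 in the striatum. The labels do not name batches of library preparation.

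The 3 genes, the list of 89 genes of the axis and the 15 marker lists were chosen with earlier results of these data known. The genes named are the 3, each gene of the list called in a tissue and the gene of each role with the smallest p-value, the 5 genes most correlated with each of the 3 genes, and markers beside the result they touch. Relations among control mice were tested with 100000 permutations (two-sided; numpy 2.4.6, scipy 1.17.1). Limits for a count of 0 are 3 counts, and Poisson intervals are exact at 95%; both cover counting error only, since no molecular identifiers were used. Positions came from GENCODE M21 (GRCm38) and sequences from RefSeq (GRCm38.p6). No protein sequences were used here. Alternatives were DESeq2 1.42.0, limma-voom (limma 3.58.1), 2 other normalizations, 2 other filters, each control group alone, the 40 number series alone or as a covariate, libraries with Ttr over 1% left out, and each mouse left out. The fit was tested on simulated data with known changes.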

Additional observations from a re-analysis of the deposited data

Results flagged for a closer look

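Ackr3 in the striatum library of control mouse P3 (NestinTK- PBS) stood apart from the other 9 control mice. Its level was -0.86 on the log2 CPM scale (0 counts), against a control median of 1.84, and the gap to the next mouse was 0.6 of the whole range, above Dixon's critical value of 0.466 for 10 samples. The same mouse had 1 count of Ackr3 in its SVZ library. Of 18 groups of values looked at, 1 stood out in this way, and chance gives about 1 in 20. With 0 to 19 counts per striatum library, the level of a mouse without counts is set by the prior count of the log scale.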

How the results depend on the processing

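Among 1307 alternative values, 1255 were counted as unchanged, 39 as moved and 2 as reversed, and the remainder gained or lost a call. Unchanged meant a shift below the spread between mice for the 3 genes. For numbers of genes called it meant a ratio below a set limit, and for other genes the same direction and call. A lost call among the 3 genes was thus not counted. A change of sign among them was counted as reversed only where the gene had been called, and both reversed values were those of Cd74. In the striatum Cxcl12 kept its sign in 10 of 11 other settings and Ackr3 in 8 of 11. Cxcl12 in the SVZ was called in 6 of 12 other settings and in 13 of 15 fits with a mouse left out. The number of genes called was 260 in the SVZ; it was 493 with DESeq2, 171 with limma-voom, 1342 without a filter on low counts, 74 and 158 with NestinTK- GCV or NestinTK+ PBS mice as only controls, 157 with the 40 number series only, and 158 without the libraries in which Ttr exceeds 1%. In the striatum 107 genes were called, against 190 with limma-voom, 330 without the filter, 365, 189 and 167 with NestinTK- GCV, NestinTK+ PBS or NestinTK- PBS mice as only controls, 168 in the 40 series and 175 with the series as a covariate. Of the axis list, 1 gene was called in the SVZ, against 2 with DESeq2, 3 without the filter, 0 with limma-voom, with NestinTK- GCV or NestinTK+ PBS mice as only controls, in the 40 series or with the series as a covariate, and 1 to 2 with a mouse left out. In the striatum 0 were called, against 2 with NestinTK- GCV and 1 with NestinTK+ PBS mice as only controls, and 1 in the 40 series or with the covariate. Leaving out 1 mouse gave 196 to 297 genes called in the SVZ and 72 to 132 in the striatum. The cause of these differences was not tested.

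Striatal Ackr3 moved to 1.52 with NestinTK- PBS mice as only controls. With a mouse left out, the log2 fold changes ranged from 0.74 to 1.35 (Cxcl12), -2.17 to -1.13 (Cxcr4) and -0.8 to -0.01 (Ackr3) in the SVZ and from 0.05 to 0.29, -0.76 to -0.12 and 0.04 to 0.35 in the striatum. Cd74 in the SVZ, which was not called, changed its sign to 0.13 with NestinTK- GCV mice as only controls and to 0.017 without the libraries with Ttr over 1%. Striatal Cxcr4 did not pass the filter in 2 settings (filterByExpr, and NestinTK- GCV mice as only controls), and no striatum library had Ttr over 1%, so these gave no value. No paired analysis was possible because the groups hold different mice and the labels give no replicate number that pairs them. At 0 to 138 counts in the SVZ and 0 to 19 in the striatum, depth limits what can be said of the receptors.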

Other observations

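All 30 libraries held counts of Xist, the transcript of the inactive X chromosome, at 1446 to 5093 counts in the SVZ and 700 to 1567 in the striatum. The methods name mice of both sexes and the labels give none.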
